A study of Camelina sativa with 159 samples.

Results

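The SPL4 triad of Camelina sativa and an SPL15 gene are 4 of the 94495 gene models in the count table of a leaf RNA survey. Csa14g063510.1, Csa03g060290.1 and Csa17g093410.1 are the copies of SPL4 in sub-genomes 1, 2 and 3, in the order used by the study. Csa09g070470.1 is the SPL15 gene model that the study names, and it alone is meant by SPL15 below. Other camelina copies of SPL15 were not looked up. They were chosen by name: the study displayed the triad as an example of divergent copy use among accessions, and took SPL15 from a co-expression module related to flowering time. Both choices were made by the study on these same libraries. The copy shares, and the level of SPL15 in late against early accessions, are therefore given as descriptions with no test.

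C. sativa (camelina) is a hexaploid oilseed crop of the Brassicaceae that carries most genes in similar copies on 3 sub-genomes. RNA came from fully expanded true leaves of young greenhouse seedlings, in 158 libraries of 48 accessions, with 2 to 6 libraries per accession. No treatment was applied. An accession (a line of the germplasm collection) differed from the others by genotype, and many also differed in the code series of their libraries, given below. The labels give each accession a number of days until 50% of plants flowered. The study measured flowering time in field plots and not on the sequenced plants. For CN 113660 and for the accession with the lowest label, the field values printed in its text differ from the labels and lie closer together. Whether the label values come from those plots was not tested. By the labels, flowering took 43.0 to 47.9 days in 44 accessions, and these are called early accessions. The 4 late accessions were CN 113662 (52 days), CN 113692 (55 days), CN 113691 (59.4 days) and CN 113660 (61.9 days), and they have 11 libraries together. The labels do not say whether the libraries of an accession came from separate plants, and the study calls them biological replicates. P-values therefore measure the spread between these libraries or accessions only.

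SPL genes encode transcription factors with the SQUAMOSA promoter-binding domain, a plant-specific DNA-binding domain. In Arabidopsis thaliana many of them are repressed in young plants by the microRNA miR156, whose fall with age releases them, which makes them part of the age pathway to flowering. Arabidopsis SPL4 encodes a small protein that promotes floral meristem identity, and SPL15 acts with the MADS-box protein SOC1 in the shoot meristem to start flowering under short days. The roles of the camelina copies themselves were not tested in these data, which come from leaves.

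The libraries held between 167 and 15246389 counts in total (median 4310559), 10 of them under 200000. The other 148 are called deeper libraries. The library codes fall into the series Cs (63 libraries), S001C (71) and S0013 (24), and what separates the series is not stated. All late libraries are of series Cs. By their overall expression profile, 21 of the 148 deeper libraries, from 14 accessions, were closer to another accession than to the other libraries of their own, 2 of them late (both of CN 113662 and closest to the early accession CN 113672). In turn 1 library of CN 113672 was closest to CN 113662. The tests and the values of the accessions at the ends are also given without them where they change. The leaf markers were high throughout, with 726 to 3010 counts per 1000000 for the chlorophyll a/b-binding protein gene Csa06g036860.1 and 32.5 to 75.5 for the phytoene desaturase gene Csa11g040110.1.

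All 4 genes were expressed at a low level. Summed over the libraries of an accession, Csa14g063510.1 had 9 to 170 reads (median 39.5), Csa03g060290.1 had 1 to 83 (median 19) and Csa17g093410.1 had 9 to 138 (median 43). SPL15 had 0 to 68 reads (median 27). Levels are given in CPM, the reads of a gene in an accession per 1000000 reads of the table, with library sizes scaled by the TMM method. Gene lengths were not used, so a CPM compares accessions for 1 gene, and the copies with each other only as read numbers. Reads from near-identical copies may have been split or lost by the authors' counting, so the level of a single copy is uncertain. In leaf RNA, fewer cells that express a gene and less RNA per cell cannot be told apart.

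Csa14g063510.1 varied most between accessions on the CPM scale. Its level ran from 0.593 CPM in CN 113750 through a median of 2.84 to 11.5 CPM in CN 113682, which is 4.06 times the median. CN 113685 was close to the highest, with 10.9 CPM (95% Poisson interval 9.15 to 12.9, which covers counting error only). The 3 libraries of CN 113682 had 9.23, 9.24 and 17.5 CPM, of which the last is closest to another accession (9.11 CPM without it), and those of CN 113685 had 7.72, 11.2 and 14.8 CPM. The libraries of CN 113750 had 0.428, 0.657 and 0.687 CPM. So each library of the highest accessions lay far above each library of the lowest one.

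Csa03g060290.1 was the copy with the fewest reads. Its level ran from 0.094 CPM in CN 113699 through a median of 1.47 to 4.39 CPM in the late accession CN 113692. In CN 113699 the 3 libraries gave 0, 0 and 1 read, at totals of 4345596, 3464687 and 3180553 counts. The other copies had 32 and 42 reads in the same libraries, so CN 113699 was low in this copy and not in the triad as a whole. The upper bound for Csa03g060290.1 there is 0.524 CPM, below the median over accessions.

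Csa17g093410.1 ran from 0.963 CPM in CN 113704 through a median of 3.12 to 7.20 CPM in CN 30478. The libraries of CN 30478 had 6.27, 7.32 and 7.53 CPM and those of CN 113704 had 0.208, 0.880 and 1.83 CPM. This copy had the narrowest spread of the triad. Over the 44 early accessions the coefficient of variation was 44.7% for Csa17g093410.1, against 71.7% for Csa14g063510.1 and 66.3% for Csa03g060290.1. The triad as a sum ran from 2.33 CPM in CN 113704 through 7.59 to 19.6 CPM in CN 113682.

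SPL15 had a coefficient of variation of 33.2% over the early accessions, where its level ran from 0.786 CPM in CN 113723 through a median of 1.90 to 4.13 CPM in CN 113690. By the labels CN 113690 is the earliest accession of the collection, and its libraries had 3.38, 4.69 and 4.74 CPM. CN 113723, the lowest early accession for SPL15, was among the highest for Csa17g093410.1, with 6.03 CPM. When the accessions were put in order of their level, the libraries of neighbours overlapped in 47 of 47 pairs for Csa14g063510.1 and Csa17g093410.1 and in 46 of 47 pairs for Csa03g060290.1 and SPL15. The order is therefore informative between its ends and not between neighbours.

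**Figure D1:**
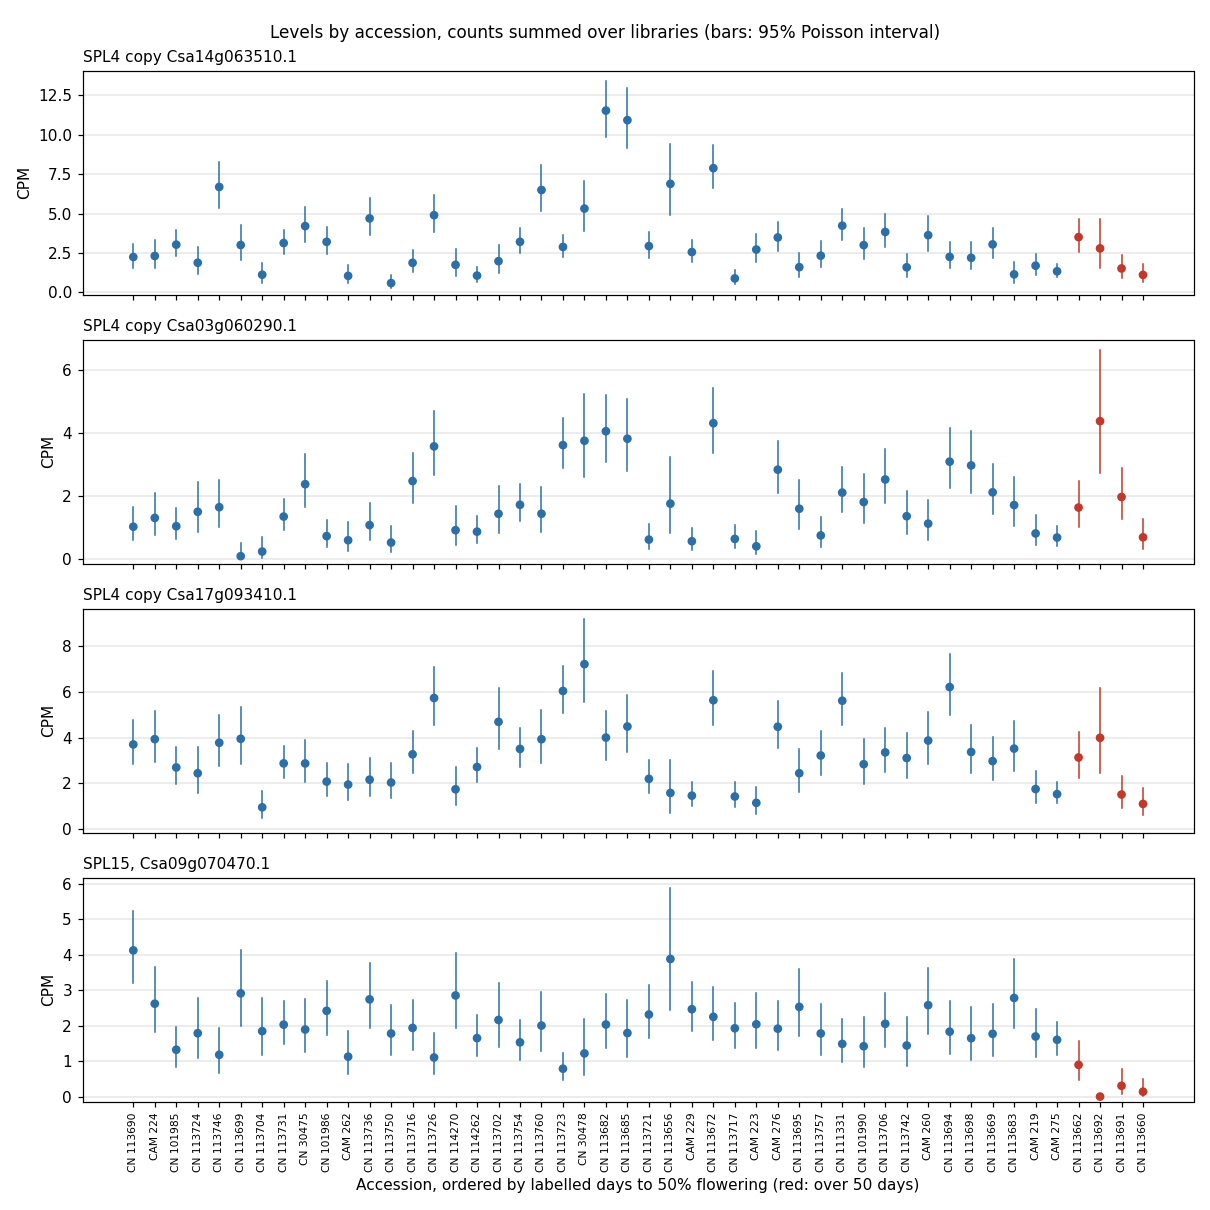
Level of each SPL4 copy and of SPL15 in the 48 accessions, in CPM of the counts summed over libraries, with accessions ordered by labelled days to 50% flowering. Bars are 95% Poisson intervals (counting error only), and the 4 late accessions in red lie at 0 to 0.895 CPM for SPL15 while they overlap with the early accessions in each of the 3 SPL4 copies.

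Whether levels differed between accessions by more than between libraries was tested across all genes with edgeR's quasi-likelihood F test on the 148 deeper libraries. The 3 copies were called at an adjusted p under 0.05, where 57.8% of the 50080 gene models tested were called. Csa14g063510.1 had the largest statistic of the 4 (F = 5.96, adjusted p = 1.21e-13), and 7.27% of gene models had a larger one. Csa03g060290.1 (F = 3.57, adjusted p = 1.37e-07) was exceeded by 17.5%, SPL15 (F = 3.46, with the late accessions in it and so given without its p) by 18.5% and Csa17g093410.1 (F = 2.63, adjusted p = 6.4e-05) by 27.7% of gene models. Without the libraries closest to another accession the statistics were 5.11 for Csa14g063510.1, 3.85 for Csa03g060290.1 and 2.63 for Csa17g093410.1, and each was still called. A call is thus common among leaf genes, and the study's choice of the triad on these libraries is not independent of it.

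The same edgeR test on the 44 early accessions alone, added after the levels had been seen, left the copies nearly where they were. Csa14g063510.1 had F = 6.05 (adjusted p = 7.09e-13), Csa03g060290.1 F = 3.62 (adjusted p = 3.43e-07) and Csa17g093410.1 F = 2.45 (adjusted p = 0.000435). For SPL15 the statistic fell to 1.84, and 42.6% of gene models had a larger one, where 51.1% of 49671 were called. The study drew the module of SPL15 from the genes that varied most over these accessions. The value of SPL15 is therefore a description and is given without its p. SPL15 thus stood lower among the gene models once the late accessions were left out, while the statistics of the copies moved little.

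The study classed triads by the share of each copy in normalized counts. The shares here are of raw reads, summed over the libraries of an accession. Over the 48 accessions, with 29 to 301 triad reads each (median 107), Csa14g063510.1 took 38.5% ± 12.4 of the reads (SD, n = 48, range 17.9% to 67.2%). Csa17g093410.1 took 41% ± 10.4 (range 15.5% to 64.6%) and Csa03g060290.1 took 20.5% ± 7.63 (range 1.33% to 39.4%). Without the libraries closest to another accession the mean shares were 39%, 40.9% and 20.1%, in the same order. The copy with the most reads was Csa17g093410.1 in 27 accessions, Csa14g063510.1 in 21 and Csa03g060290.1 in 2, with 2 ties counted for both copies.

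Part of this spread is read sampling, which alone gives an SD of 5.14 percentage points for Csa14g063510.1, 4.29 for Csa03g060290.1 and 5.15 for Csa17g093410.1. Between deeper libraries of 1 accession, which hold fewer triad reads (median 28), the SD was 12.6, 8.16 and 10.8 points, as large as that between accessions. A measure that takes the read numbers into account is the chi-square of the triad counts per degree of freedom, which is about 1 when only read sampling varies. It was 5.14 between accessions (94 degrees of freedom) and 1.52 between libraries of 1 accession (202 degrees of freedom). The value between accessions was highest for Csa14g063510.1 against the rest of the triad (7.51, against 1.87 between libraries), lower for Csa17g093410.1 (5.16 against 1.38) and lowest for Csa03g060290.1 (3.31 against 1.29). With the libraries of series Cs alone it was 2.7 between accessions and 1.53 between libraries, and with those of S001C alone 2.97 and 1.96. With S001C libraries alone the order of the copies was kept. Csa14g063510.1 had 4.70 between accessions against 2.19 between libraries, Csa17g093410.1 had 2.65 against 2.06 and Csa03g060290.1 had 1.90 against 1.62. With those of Cs the order was not kept. With Cs libraries alone Csa14g063510.1 had 3.16 between accessions against 2.36 between libraries, Csa03g060290.1 had 2.89 against 0.585, and Csa17g093410.1 had 1.96 against 2, with no excess between accessions.

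**Figure D2:**
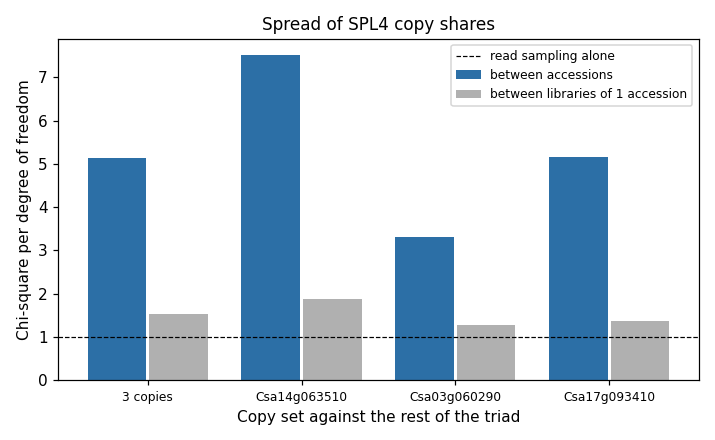
Chi-square per degree of freedom of the SPL4 triad counts, between the 48 accessions (blue) and between libraries of 1 accession (grey), for the 3 copies together and for each copy against the rest. The dashed line at 1 is read sampling alone, and the value between accessions is highest for Csa14g063510.1 (7.51) and lowest for Csa03g060290.1 (3.31).

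The accessions at the ends of the shares show what the spread consists of. In CN 113656, Csa14g063510.1 took 39 of 58 triad reads, a share of 67.2% (exact 95% binomial interval 53.7% to 79.0%). In CN 113750, Csa17g093410.1 took 31 of 48 reads, which is 64.6% (49.5% to 77.8%), while Csa14g063510.1 took 9. These accessions lie at opposite ends of the balance between Csa14g063510.1 and Csa17g093410.1, and their intervals for either copy do not overlap.

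Csa03g060290.1 was at its lowest share, 1.33% (0.034% to 7.21%), in CN 113699 with 1 of 75 reads. Its highest shares were in the late accessions CN 113691, with 26 of 66 reads or 39.4% (27.6% to 52.2%), and CN 113692, with 22 of 56 reads or 39.3% (26.5% to 53.2%). These were the only accessions in which this copy had the most reads. In the other late accessions it took 23.8% (CN 113660) and 19.8% (CN 113662), inside the range of most early accessions.

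With a share under 20% read as suppressed, and a triad as dominant in a copy where both others lay under 20%, the triad was balanced in 21 accessions. Csa03g060290.1 was suppressed in 23 and Csa14g063510.1 in 2 (CN 113683 and CN 113694), and 1 accession each was dominant for Csa14g063510.1 (CN 113656) and Csa17g093410.1 (CN 113750). The difference between balanced and suppressed rests almost entirely on which side of 20% the share of Csa03g060290.1 falls. In 36 of the 48 accessions its interval held 20%, in 5 it lay below and in 7 above. Just inside the threshold were CN 113685 with 19.9% and CN 113662 with 19.8%, and just outside were CN 113754 with 20.5% and CN 113682 with 20.8%.

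Only 5 accessions had intervals of all 3 copies that excluded 20%. CAM 276 was balanced among them, with 49 of 186 reads or 26.3% (20.2% to 33.3%) for Csa03g060290.1. This copy was suppressed in the other 4. Besides CN 113699 these were CN 113721 with 11 of 102 reads or 10.8% (5.51% to 18.5%), CN 101986 with 13 of 107 reads (6.63% to 19.9%) and CN 113760 with 18 of 148 reads (7.37% to 18.5%). In these accessions Csa14g063510.1 had the most reads, with 52, 57 and 81, whereas in CN 113699 it was Csa17g093410.1 with 42. Without the libraries closest to another accession 3 accessions remained with such intervals, and only CN 113699 and CN 113760 were the same. CAM 276 was left with 43 reads, CN 113721 with 21 and CN 101986 with 79, and in each the interval of at least 1 copy then held 20%. CN 114262 entered, with 0 of 36 reads for Csa03g060290.1, which allows a share of up to 9.74% (exact interval). All 18 reads of this copy in CN 114262 were in the library that is closest to another accession. The classes were then 20 balanced and 22 with Csa03g060290.1 suppressed, of 47 accessions. CAM 219 dropped out, since all its libraries were closest to another accession. CAM 260 was classed from 1 library with 3 triad reads, where the interval of Csa03g060290.1 ran from 0 to 70.8%. Taking the nearest ideal pattern instead of the threshold gave 33 balanced accessions, 14 with Csa03g060290.1 suppressed and 1 dominant for Csa14g063510.1. Single libraries did not repeat the pattern of their accession well. At 2 to 183 triad reads per deeper library (median 28), 94 of 148 showed the pattern of their accession, and in 13 accessions all deeper libraries had 1 pattern.

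**Figure D3:**
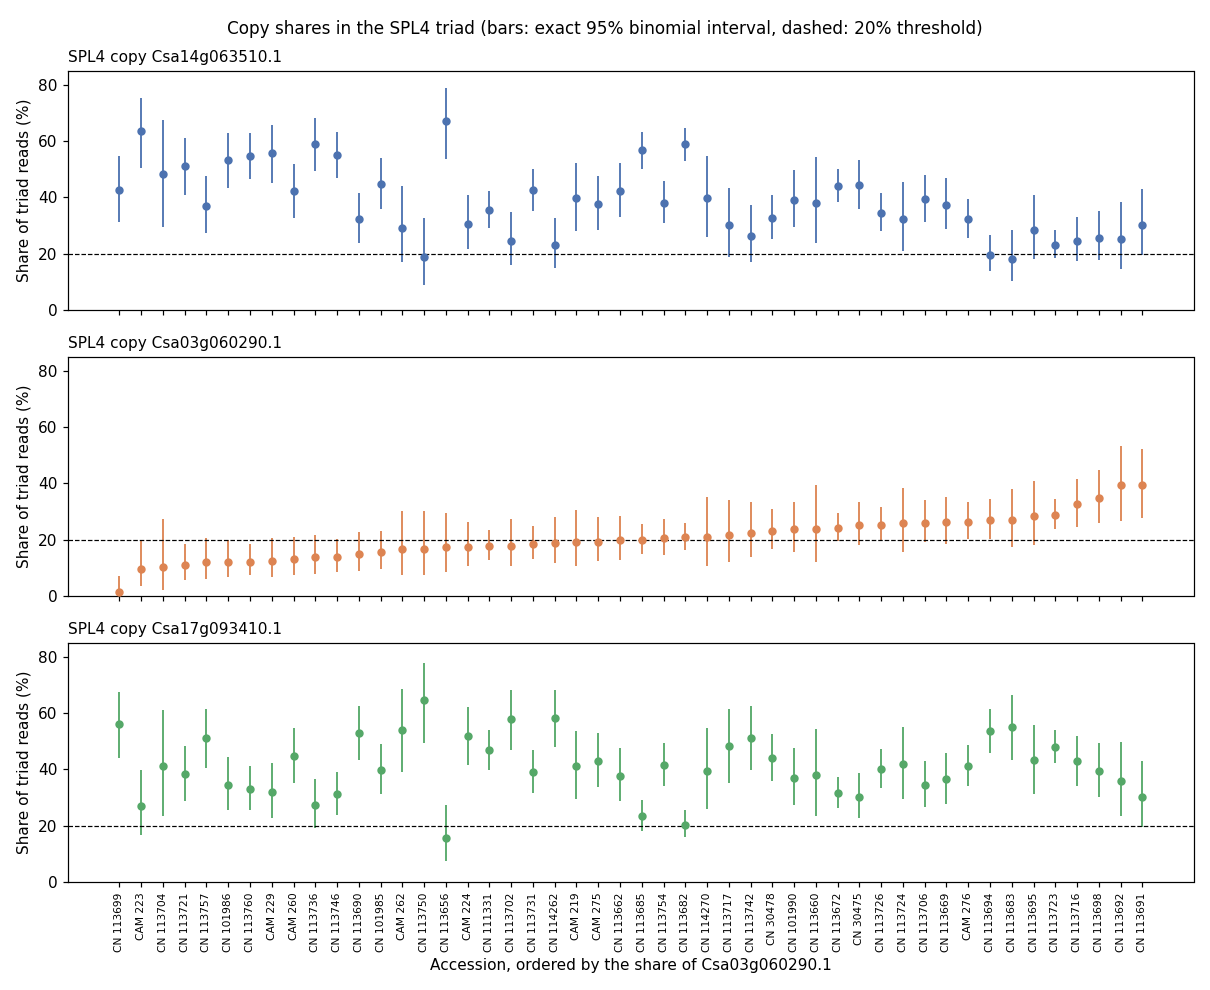
Share of each SPL4 copy in the triad reads of an accession, in percent, with exact 95% binomial intervals (counting error only), for the 48 accessions ordered by the share of Csa03g060290.1. The dashed line is the 20% threshold, which lies inside the interval of Csa03g060290.1 in 36 accessions, and the share of this copy runs from 1.33% to 39.4%.

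The copies rose and fell together between accessions, in spite of their differing shares. Over the 44 early accessions, on log2 CPM, Csa03g060290.1 and Csa17g093410.1 had the closest relation, with Pearson's r = 0.697 and Spearman's rho = 0.711. The permutation p was 1e-05 for both, the smallest that 100000 permutations can give, and the adjusted p over 19 relations was 0.00019. Without CN 113699 and CN 113704, the accessions farthest from the median of Csa03g060290.1, r was 0.794. CN 113699 had 3.95 CPM of Csa17g093410.1 at 0.094 CPM of Csa03g060290.1.

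Csa14g063510.1 was related to Csa03g060290.1 with r = 0.549 and rho = 0.563 (permutation p = 0.00015 and 7.0e-05, adjusted p = 0.00143 and 0.000665), and r was 0.486 without the 2 farthest accessions. With Csa17g093410.1 it had r = 0.473 and rho = 0.494 (permutation p = 0.00109 and 0.00077, adjusted p = 0.0069 and 0.00488), and r was 0.460 without the 2 farthest. The points share library preparation, scaling and any reads that the counting assigned to the wrong copy, and the part of these in the relations was not tested.

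The relations passed the test within the larger code series and not within the smallest. Between Csa03g060290.1 and Csa17g093410.1, r was 0.671 over 34 accessions of series Cs, 0.806 over 35 of S001C and -0.025 over 10 of S0013 (rho = 0.273, and r = 0.541 without the farthest accessions, CN 113699 and CN 113702). Between Csa14g063510.1 and Csa03g060290.1 it was 0.541, 0.617 and 0.396, and between Csa14g063510.1 and Csa17g093410.1 it was 0.557, 0.529 and 0.033. The S0013 accessions include CN 113699 and the highest accessions for Csa14g063510.1, CN 113682 and CN 113685. Without the libraries closest to another accession the relations had r = 0.522 (Csa14g063510.1 with Csa03g060290.1), 0.518 (Csa03g060290.1 with Csa17g093410.1) and 0.370 (Csa14g063510.1 with Csa17g093410.1). The last did not pass after adjustment (permutation p = 0.0146, adjusted p = 0.0928). In the same order rho was 0.538, 0.595 and 0.353, and r without the 2 farthest accessions was 0.480, 0.646 and 0.326. For Csa03g060290.1 with Csa17g093410.1 the farthest were CAM 260 and CN 114262, each left with 0 reads of Csa03g060290.1.

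Libraries of the same accession also deviated together in the copies. The deviations of 148 deeper libraries from the means of their accessions had r = 0.516 between Csa03g060290.1 and Csa17g093410.1, 0.392 between Csa14g063510.1 and Csa17g093410.1 and 0.269 between Csa14g063510.1 and Csa03g060290.1, given as a description. With SPL15 the same values were 0.174 for Csa14g063510.1, 0.0753 for Csa03g060290.1 and 0.0662 for Csa17g093410.1. Within accessions, too, the copies were closer to each other than to SPL15.

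No relation of SPL15 to the triad passed the test over the early accessions. For the sum of the triad r was -0.13 (rho = -0.13, permutation p = 0.396, adjusted p = 0.685), with a 95% Fisher interval of r from -0.412 to 0.173. For the single copies r was 0.024 for Csa14g063510.1 (interval -0.275 to 0.319), -0.282 for Csa03g060290.1 (-0.534 to 0.016) and -0.265 for Csa17g093410.1 (-0.521 to 0.034). None passed after adjustment (adjusted permutation p = 0.991, 0.241 and 0.263). The intervals for Csa03g060290.1 and Csa17g093410.1 lie almost wholly below 0, and none of them reaches the r of 0.697 between these copies. By rank the relations were weaker, with rho = -0.238 for Csa03g060290.1 and -0.158 for Csa17g093410.1. Without the libraries closest to another accession r was -0.123 (interval -0.408 to 0.184) and -0.135 (-0.418 to 0.172). The lean below 0 thus depended on the measure and the libraries.

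**Figure D4:**
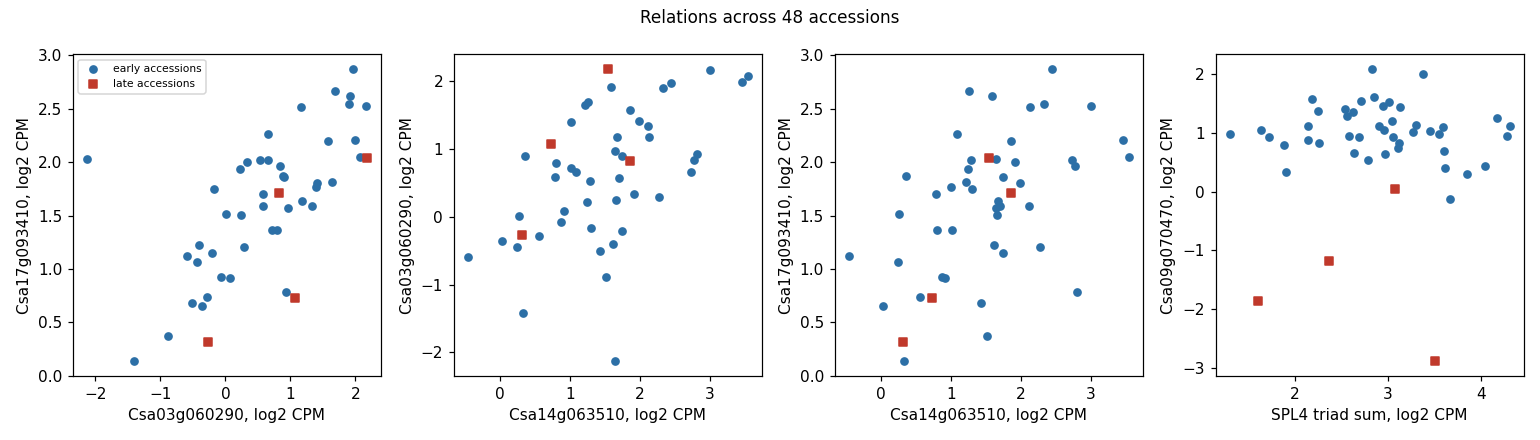
Levels in log2 CPM of the counts summed over libraries, each point being 1 accession, for the 3 pairs of SPL4 copies and for the triad sum against SPL15 (blue circles early, red squares late). The early accessions rise together in the copy panels (r = 0.697, 0.549 and 0.473) and show no trend against SPL15 (r = -0.13), where 3 of the 4 late accessions lie below all of them.

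The late accessions had less SPL15 than nearly all early ones. Their levels were 0.895 CPM in CN 113662 (12 reads), 0.304 in CN 113691 (4 reads), 0.139 in CN 113660 (2 reads) and 0 in CN 113692, where 0 reads among 4968195 counts allow up to 0.598 CPM. The 44 early accessions had 2.01 ± 0.667 CPM (SD) and the 4 late ones 0.334 ± 0.394 CPM, and of the early accessions only CN 113723 lay below the highest late one. Among all 52307 gene models tested, 0.891% had at most 1 early accession below the highest late one. Both values use all libraries. Without its libraries closest to another accession CN 113662 had 1.24 CPM. This lay above CN 113723 and also above CN 113726 (1.10 CPM) and CN 113706 (0.711 CPM without such libraries of its own). By their values over all libraries CAM 262 (1.13 CPM), CN 113746 (1.18 CPM) and CN 30478 (1.22 CPM), which have no such libraries, lay below it too. The separation was therefore less complete. The share over gene models was not computed for that setting.

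The fitted log2 fold change of SPL15, late against early, was -2.37 (SE 0.37). CN 113662, whose flowering time is nearest to the early accessions, was the highest of the late ones, and without it the value was -3.41 (SE 0.46). Without CN 113692 it was -2.15. Of the libraries of CN 113662, the 2 closest to CN 113672 had 1.16 and 0.602 CPM of SPL15, and the other had 1.25. The library of CN 113672 closest to CN 113662 had 0.346 CPM (2 reads), where the others of CN 113672 had 2.29, 2.91 and 3.90 CPM, so it lay at the level of the late accessions. Whether labels were exchanged was not tested. In CN 113692 the level was at least 3.18-fold lower than the early median, taking 3 counts as the limit that 0 reads allow. Of the 11 late libraries 3 had no SPL15 read and the highest had 1.25 CPM, a level that 108 of 137 deeper early libraries exceeded. The late accessions have Cs libraries only. Against Cs libraries of the early accessions the value was -2.43 (SE 0.42), and without the libraries closest to another accession it was -2.69 (SE 0.48). Within series Cs, 10 of the 11 late libraries carry code numbers up to 50, against 2 of the 52 early ones. These early libraries had 1.48 CPM (CN 111331, 6 reads) and 1.29 CPM (CN 101990, 7 reads) of SPL15. The late library with a higher code had 0.602 CPM (CN 113662, 4 reads) and is closest to another accession. With so few exceptions, anything that followed the code number can hardly be told apart from late flowering, and its part was not tested.

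For the 3 SPL4 copies no difference between late and early accessions was called, where 14.3% of the 52307 gene models were (8.27% as lower in late accessions). Csa14g063510.1 had 3.37 ± 2.42 CPM in early and 2.23 ± 1.11 CPM in late accessions, with a log2 fold change of -0.61 (SE 0.52, edgeR quasi-likelihood test, adjusted p = 0.457). Csa17g093410.1 had 3.28 ± 1.47 and 2.44 ± 1.35 CPM, with -0.50 (SE 0.37, adjusted p = 0.385). Csa03g060290.1 had 1.71 ± 1.13 and 2.17 ± 1.57 CPM, with 0.24 (SE 0.52, adjusted p = 0.806), and its value became -0.25 without CN 113692. Over the alternatives the values ran from -0.99 to -0.04 for Csa14g063510.1, from -0.77 to -0.22 for Csa17g093410.1 and from -0.25 to 0.85 for Csa03g060290.1, and 0 were called. The late accessions differed among themselves. CN 113660 had 1.11, 0.695 and 1.11 CPM of Csa14g063510.1, Csa03g060290.1 and Csa17g093410.1, below the early median for each, while CN 113662 had 3.51, 1.64 and 3.13 CPM, close to the early medians of 2.91, 1.44 and 3.16 CPM.

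The study names other flowering genes in these accessions, which it took from the same flowering-time related set, so their direction is no independent evidence. They are the MADS-box genes SOC1 (Csa04g063650.1 and Csa06g052060.1), AGL19 (Csa10g020140.1 and Csa12g033740.1) and AGL103 (Csa07g033470.1), the histone methyltransferase gene SDG16 (Csa10g015090.1) and SNZ (Csa05g014000.1), an AP2-like repressor of flowering in Arabidopsis. All 7 were called lower in late accessions and 0 higher, where 8.27% of the 52307 gene models tested were called lower. Their log2 fold changes ran from -3.21 (Csa04g063650.1) to -1.39 (Csa10g015090.1) with a median of -1.96, against a median of -0.01 over all gene models. Against Cs libraries alone 5 of the 6 tested were called lower, where 1725 of 47745 gene models were. The median of the 6 was then -1.59. SPL15 lay within the range of the 7 genes over all libraries, while the SPL4 copies, with a median of -0.50, lay outside it.

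Over all libraries of the early accessions no relation of SPL15 to these genes passed the test. The relation to SDG16 was the closest, with r = 0.367 and rho = 0.355 (permutation p = 0.0149 and 0.0182), but not after adjustment (adjusted p = 0.0708 and 0.0863, r = 0.343 without the 2 farthest accessions). For the others r ran from -0.241 (SNZ) to 0.198 (Csa12g033740.1). With the Cs libraries alone (34 accessions) 2 of the relations passed. SPL15 with the SOC1 copy Csa06g052060.1 had r = 0.534 and rho = 0.375 (permutation p = 0.00116 and 0.0289, adjusted p = 0.00551 and 0.11, r = 0.402 without the 2 farthest accessions). With the AGL19 copy Csa10g020140.1 it had r = 0.504 and rho = 0.551 (permutation p = 0.0023 and 0.00085, adjusted p = 0.00874 and 0.00808, r = 0.341 without the 2 farthest). In S001C libraries (35 accessions) the same relations had r = -0.0697 and -0.19, so they did not hold across the series. No relation of the 4 genes to flowering time passed either, over the span of 43.0 to 47.9 days. The largest value was r = 0.184 for Csa03g060290.1 (interval -0.12 to 0.456, permutation p = 0.233, adjusted p = 0.492). For SPL15 it was -0.0903 (interval -0.377 to 0.212, permutation p = 0.56, adjusted p = 0.818), and without CN 113690 and CAM 219, the ends of the range, 0.0791.

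No difference between series Cs and S001C was called for the 4 genes. Within 30 accessions that have deeper libraries of both series, 19.4% of the 43491 gene models tested differed between Cs and S001C libraries, among them none of the 4 genes. The log2 differences, Cs against S001C, were 0.01 (SE 0.14, edgeR, adjusted p = 0.979) for Csa14g063510.1, -0.31 (SE 0.20, adjusted p = 0.286) for Csa03g060290.1, -0.11 (SE 0.12, adjusted p = 0.537) for Csa17g093410.1 and 0.17 (SE 0.13, adjusted p = 0.391) for SPL15. Of the listed flowering genes 5 of the 6 tested were called lower in Cs than in S001C libraries, with a median log2 difference of -0.34, the direction in which the late accessions, all Cs, also differed. Series S0013 was not compared in this way, and 5 of its 10 accessions have no other libraries.

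The gene models whose pattern was most like that of each gene were found by Spearman correlation of log2 CPM over the 48 accessions, among 52306 gene models, and are given as a description. For Csa03g060290.1 the closest was Csa15g058610.1 (rho = 0.744), followed by Csa17g093410.1 itself (0.693) and Csa04g023890.1 (0.691). For Csa17g093410.1 the closest was again Csa15g058610.1 (0.715), then Csa07g047650.1 (0.696) and Csa03g060290.1 (0.693). Csa15g058610.1 was also the closest to the sum of the triad (0.767), ahead of Csa05g030100.1 (0.679) and Csa16g012420.1 (0.651). It had a median of 7.5 reads per accession, fewer than any copy.

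So Csa03g060290.1 and Csa17g093410.1 were each among the 3 gene models most like the other, of the 52306 compared. Csa14g063510.1 was not among the 3 closest to either. Its own closest were Csa11g073870.1 (0.682), Csa05g052310.1 (0.642) and Csa04g036640.1 (0.636). For SPL15 they were Csa02g072510.1 (0.613), Csa13g034710.1 (0.606) and Csa04g031150.1 (0.581), and none of the listed flowering genes.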

How the data were processed

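Leaf RNA of C. sativa was sequenced on the Illumina HiSeq platform from TruSeq libraries. Per the submitters' processing notes the authors trimmed reads with Trimmomatic 0.32, aligned them with STAR 2.7.10a and counted them with featureCounts 2.0.1, and deposited raw counts per gene model for each library, not normalized and not pooled. The genome build, the annotation version, the strand setting and the handling of reads that fit several copies are not given in the sources used here. A library of accession Licalla was left out of every comparison.

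Libraries were grouped by the labelled accession, and accessions by labelled flowering time, with 50 days as the boundary. Each copy has 1 transcript row. CPM values are from counts summed over an accession's libraries, with TMM and, on the log2 scale, a prior count of 2. The accession effect was tested over libraries of at least 200000 counts, the late against early contrast over accession sums, and the code series with accession as a term, each with edgeR 4.0.16 (filterByExpr, glmQLFit, glmQLFTest) in R 4.3.3, and adjusted over all gene models tested by Benjamini-Hochberg at 0.05. The profile check correlated each deeper library with the mean of the others of each accession over the 1000 gene models that best separated the accessions. DESeq2 1.42.0, other size factors, no filter, other sets of libraries and left-out libraries or accessions were alternatives. Relations used 100000 two-sided permutations. The test was checked on simulated counts with 4-fold changes, of which 100% were recovered for late against early (51296 gene models), 94.9% for the accession effect (5728) and 100% for the code series (5269). All gene models were simulated with the same spread. These values therefore do not show how often smaller changes, or changes in genes of wider spread, would be found.

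The genes named are the 4 genes, 7 flowering genes the study names by ID, and the 3 gene models most like each gene by Spearman correlation. The genes, lists and tests were chosen with earlier results of these data known, and the early-only accession test, the S0013 values and the chi-square with replicates left out were added after the data had been seen. No sequence or coordinate is printed, since no table at hand linked these gene models to one.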

Additional observations from a re-analysis of the deposited data

Results flagged for a closer look

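In accessions with 4 or 5 deeper libraries and in the 4 late accessions, 24 sets of values were checked for a library far from the others, and 3 had one. Chance gives about 1 in 20. In CN 111331, 1 library had 3.62 CPM of Csa03g060290.1, apart from 0.691, 0.983 and 1.03 CPM in the others. Another library of CN 111331, with 901265 counts, had 0.0 CPM (0 reads) of SPL15, where the others had 1.48, 1.61 and 1.62 CPM. At this depth 0 reads allow up to 3.09 CPM (3 counts), so the library cannot be told apart from the others. In CN 113672, 1 library had 12.3 CPM of Csa14g063510.1, apart from 5.72, 6.58 and 6.80 CPM.

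The library of Licalla, which the comparisons do not use, held reads of all 4 genes. There were 20 reads of Csa14g063510.1, 16 of Csa03g060290.1, 32 of Csa17g093410.1 and 10 of SPL15 among 8286624 counts.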

How the results depend on the processing

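The classes of the triad moved with the rule and the libraries. The number of balanced accessions, 21 in all, was 13 of 38 with Cs libraries only and 33 by the nearest pattern. That with Csa03g060290.1 suppressed, 23 in all, was 13 of 35 with S001C libraries only and 14 by the nearest pattern. From mean normalized counts, nearer to the measure of the study, 22 accessions were balanced and 23 had Csa03g060290.1 suppressed. The chi-square per degree of freedom between accessions, 5.14, was 2.7 with Cs and 2.97 with S001C libraries only, and 3.46 to 4.29 with 1 replicate left out. The accession effect had 28964 calls and 16897 to 23975 with 1 replicate left out, of fewer libraries. Late against early had 7468 calls, 3355 with Cs libraries only, and 3874 to 6464 with 1 late accession left out. The relation of Csa14g063510.1 to Csa17g093410.1 lost its call without the libraries closest to another accession (r = 0.370), and the cause was not tested. With S0013 libraries only, chosen after seeing the data, r was 0.396 (Csa14g063510.1 with Csa03g060290.1), 0.033 (Csa14g063510.1 with Csa17g093410.1) and -0.025 (Csa03g060290.1 with Csa17g093410.1), over 10 accessions. With Cs libraries only, the relations of SPL15 to Csa06g052060.1 (r = 0.534) and Csa10g020140.1 (r = 0.504) gained a call. Of 140 alternative values of relations 20 changed sign, of which 1 belonged to a called relation. The other 148 alternative values of the comparisons stayed near the reported value or on its side of the threshold, as did 147 of the single genes and of the relations to the listed genes. Csa17g093410.1 had the weakest accession effect when a replicate was left out, with an adjusted p of up to 0.0327 (edgeR). No paired analysis was possible because the labels carry library codes and no replicate numbers. A replicate left out above is therefore a place in the listing order of an accession's libraries. Cs libraries come first in that order, so leaving a place out also changed the mix of code series. Summing transcripts per copy was not run, since each copy has 1. At a median of 107 triad reads per accession, the median interval of a share spanned 15.4 to 19.3 percentage points.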
